A study of Mus musculus with 4 samples.

Results

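The 10 genes described here encode the core of the vascular basement membrane: the type IV collagen chains *Col4a1* and *Col4a2*, the laminin chains *Lama4*, *Lama5*, *Lamb1*, *Lamb2* and *Lamc1*, the nidogens *Nid1* and *Nid2*, and perlecan, *Hspg2*. They were chosen by name, as 10 of the 46517 genes counted, and all 10 were found and passed the filter on low counts. They were measured by Smart-seq2, a plate-based method that reads a sorted cell per well without molecular identifiers, in CD31+/CD45-/Lyve1- cells from the ear dermis of wild-type female C57Bl/6 mice (C57BL/6 J in the study's methods). The labels call the mice adult, aged 12 to 26 weeks, and the study's methods give a younger range. A total of 4 plates of 384 wells form 2 replicates of 2 plates (A and B). No treatment was given, no transgene was carried and cells of several mice were pooled, so the groups compared are classes of cells within a replicate. The series text names 6 mice, and whether each replicate is a separate pool of that size was not settled, so the tests measure only the spread between these replicates.

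The basement membrane is the thin sheet of extracellular matrix on which endothelial cells rest and in which pericytes are embedded. Laminins, trimers of an alpha, a beta and a gamma chain, assemble on the cell surface through integrins and dystroglycan, type IV collagen forms a second, covalently linked network, and nidogens and perlecan tie the layers to each other. Both endothelial and mural cells (pericytes and smooth muscle cells) produce these proteins, and laminin chains containing the *Lama4* or the *Lama5* product are the main endothelial forms.

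Blood vascular endothelial cells (BECs) had reads of *Kdr*, *Cdh5* or *Pecam1*, with 2 of these 3 required, and stayed under 100 CPM (a gene's reads scaled to the total of the well) for the lymphatic genes *Prox1* and *Lyve1*, the leukocyte gene *Ptprc* and the mural genes *Kcnj8* and *Pdgfrb*. This left 338 wells of replicate 1 and 363 of replicate 2. Clustering without the basement membrane genes gave artery-like wells (25 and 35, led by *Vegfc*, *Fbln5* and *St8sia6*), capillary-like wells (128 and 30, led by *Slc28a2*, *Aqp7* and *Car4*) and vein-like wells (107 and 82, led by *Sele*, *Selp* and *Rasal1*). The other 294 kept wells stayed unnamed, among them a cluster of 162 wells in which 13 of the 14 mural and 6 of the 7 lymphatic markers were raised, together with all 7 fibroblast, all 5 keratinocyte, all 4 Schwann and 5 of the 7 immune markers. The naming rule called this cluster mural. It was left unnamed by hand, because its leading genes included the lymphatic genes *Mmrn1* and *Reln*. Mural-mixed wells passed the same endothelial rule but held at least 100 CPM of *Pdgfrb* or *Kcnj8*, and numbered 407 and 53. Over all wells, the median was 161838.5 reads in replicate 1 and 41219.5 in replicate 2. Within the classes, artery-like wells held 120914 and 162969, capillary-like wells 136182.5 and 99051.5, and vein-like wells 187248 and 247041 reads, so that of these 3 classes the capillary-like wells were the deeper in replicate 1. Mural-mixed wells, at 184003 and 50868 reads, and all kept BECs, at 142614.5 and 92974 reads, were deeper in replicate 1 as well. At least 10 CPM of *Pdgfrb* or *Kcnj8* was present in 320 of the kept BECs of replicate 1 and in 63 of those of replicate 2, so traces of mural RNA moved with the replicate, and their part in the levels below was not tested.

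Both type IV collagen genes were higher in replicate 1 than in replicate 2 in every class. *Col4a1* averaged 854, 1525 and 567 CPM in artery-, capillary- and vein-like wells of replicate 1, and 138, 271 and 257 CPM in those of replicate 2. Mural-mixed wells held 1189 and 431 CPM. For *Col4a1* each BEC class of replicate 1 was thus above each of replicate 2, and within both replicates the capillary-like wells were the highest of the BEC classes. In replicate 2 this rested on 1 well, without which the capillary-like mean was 231 CPM, below the vein-like mean. *Col4a2*, the partner chain of the same collagen trimer, averaged 927, 1304 and 551 CPM in the 3 classes of replicate 1 and 158, 676 and 242 CPM in those of replicate 2, with 1106 and 415 CPM in mural-mixed wells. At a stricter limit of 10 CPM for the excluded genes, which left 2, 3 and 7 artery-, capillary- and vein-like wells of replicate 1 and 32, 26 and 91 of replicate 2, *Col4a2* was highest in vein-like wells of replicate 1 (926 against 437 CPM in capillary-like wells). At the limit of 100 CPM the order was again capillary-like, artery-like, vein-like in replicate 1, while in replicate 2 vein-like wells lay above artery-like wells. The capillary-like mean of replicate 2 rested on few wells, since 88.2% of its summed CPM came from the 5 highest of 30 and 60.0% from a single well, without which it was 279 CPM.

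**Figure D1:**
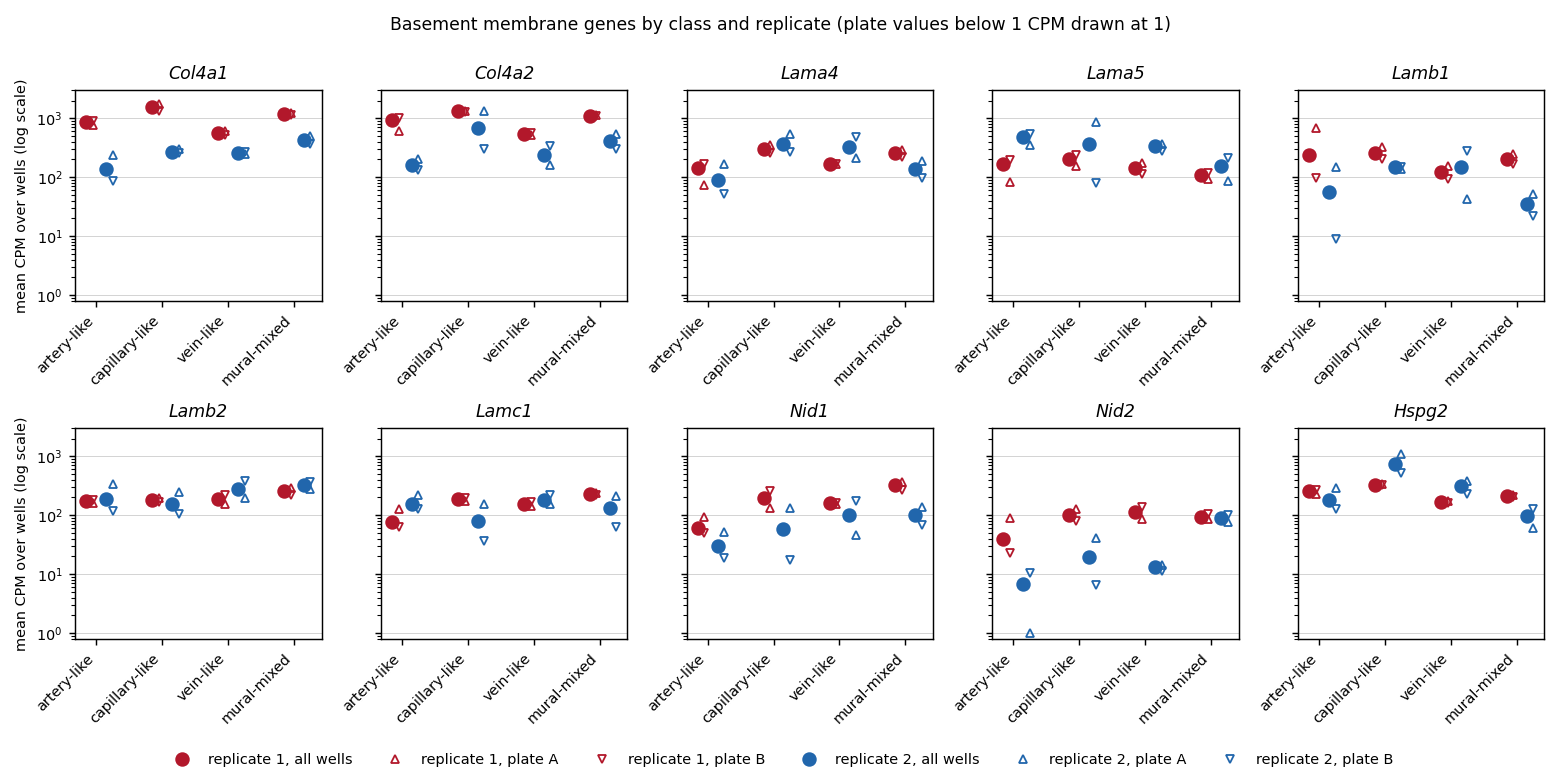
Mean CPM over wells (y axis, log scale) of each basement membrane gene in artery-like, capillary-like, vein-like and mural-mixed wells, with large points for replicates and triangles for their plates. *Col4a1* and *Col4a2* of replicate 1 lay above those of replicate 2 in every class, and *Nid2* spanned 6.88 to 115 CPM.

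*Col4a1* and *Col4a2* are neighbours on chromosome 8 (GRCm38, GENCODE vM21). *Col4a1* spans 11198423 to 11312826 on the minus strand and *Col4a2* spans 11312805 to 11449287 on the plus strand, so that they are transcribed away from each other and their annotated 5′ ends overlap by 22 bases. Across kept BECs they were the most strongly correlated of the 45 pairs of these genes in both replicates, with a Spearman correlation of 0.52 over 338 wells and 0.26 over 363 wells. The next pair in both, *Col4a2* with *Hspg2*, stood at 0.37 and 0.25, so the lead was small in replicate 2. The median pair stood at 0.09 and 0.12. These are descriptions, because wells of a replicate share their depth and their pool. Per kilobase of exon (the union of annotated exons), the ratio of *Col4a1* to *Col4a2* in the summed counts of a class lay between 0.92 and 1.02 in replicate 1 and between 0.55 and 0.83 in replicate 2. As a ratio of the mean CPM over wells, which weights shallow and deep wells alike, it lay between 0.82 and 1.04 in replicate 1 and between 0.36 and 0.94 in replicate 2. The 0.36, of capillary-like wells, rested on the *Col4a2* well named above, and the artery- and vein-like ratios of replicate 2 were 0.78 and 0.94.

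Of the laminin alpha chains, *Lama4* was lowest in artery-like wells of both replicates. It averaged 144, 299 and 170 CPM in artery-, capillary- and vein-like wells of replicate 1 and 90.7, 368 and 329 CPM in those of replicate 2. Without the highest well of each class these were 94.7, 285 and 161 CPM and 44.99, 274 and 295 CPM, so artery-like wells stayed lowest and the other classes of replicate 2 changed places. The capillary-like values did not overlap the artery-like ones, whereas the vein-like values overlapped the capillary-like range. With finer clustering (the next higher resolution), the fitted difference of artery- from vein-like wells was 0.56 on the log2 scale for *Lama4*. *Lama5*, the alpha chain linked to low leukocyte passage and to junction stability, averaged 168, 201 and 143 CPM in replicate 1 and 474, 366 and 332 CPM in replicate 2. The capillary-like mean of replicate 2 took 83.2% of its summed CPM from 1 of 30 wells and was 63.7 CPM without it, so that the place of capillary-like wells in replicate 2 rested on that well. In mural-mixed wells *Lama4* held 256 and 140 CPM and *Lama5* 107 and 153 CPM (90.9 CPM in replicate 2 without the highest well), so that *Lama5* was below all BEC classes in replicate 1. In replicate 2 it was below the artery- and vein-like means, and below the capillary-like mean only with that well.

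The beta and gamma chains had no order of the BEC classes common to both replicates. *Lamb2* averaged 175, 180 and 190 CPM in artery-, capillary- and vein-like wells of replicate 1 and 192, 155 and 277 CPM in those of replicate 2 (106, 77.0 and 244 CPM without the highest well of each class), and was higher in mural-mixed wells of both, at 257 and 323 CPM. Without its highest well, the mural-mixed mean of replicate 2 was level with the vein-like mean, at 277 CPM. Over all kept BECs it was the steadiest of the 10 genes, at 205 ± 4.55 CPM (SD, n = 2 replicates). *Lamb1* was less steady, at 239, 259 and 122 CPM in replicate 1 and 56.1, 146 and 148 CPM in replicate 2. Its means in artery-like wells of both replicates and in capillary-like wells of replicate 2 rested on single wells, without which they were 132, 5.98 and 74.4 CPM. Plate A of replicate 1 held 695 CPM of *Lamb1* in its 6 artery-like wells against 95.6 CPM in the 19 of plate B, and 268 against 57.4 CPM without the highest well of each. *Lamc1*, the gamma chain shared by most laminins, averaged 77.6, 188 and 157 CPM in replicate 1 and 158, 81.3 and 183 CPM in replicate 2, so that artery-like wells were lowest in replicate 1 and capillary-like wells in replicate 2.

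Both nidogen genes had their lowest class mean in artery-like wells of both replicates, but not at the limit of 10 CPM. There *Nid2* of replicate 2 stood at 36.9, 23.9 and 29.3 CPM in artery-, capillary- and vein-like wells, and *Nid1* of replicate 1 at 87.1 CPM in artery-like against 59.1 CPM in vein-like wells. The artery-like cluster at that limit had 6 of the 7 fibroblast markers raised beside 11 of the 12 artery markers, with *Col1a1* and *Col1a2* among its leading genes. With finer clustering (the next higher resolution), the fitted difference of artery- from vein-like wells was 0.84 on the log2 scale for *Nid2*. *Nid1* averaged 59.8, 199 and 159 CPM in artery-, capillary- and vein-like wells of replicate 1 and 30.2, 59.4 and 101 CPM in those of replicate 2. Without the highest well of each class, the *Nid1* means of replicate 2 were 17.8, 24.5 and 79.1 CPM, in the same order. *Nid2* averaged 39.3, 102 and 115 CPM in replicate 1 and 6.88, 19.2 and 13.0 CPM in replicate 2. In replicate 2, 97.5% of the summed CPM of *Nid2* in artery-like wells came from 1 of 35 wells, and without the highest well of each class the means were 0.18, 10.1 and 9.76 CPM. The artery-like mean of replicate 1 was 18.8 CPM without its highest well. *Nid2* overlaps *Rtraf* on the opposite strand by 437 bases, and the library kit does not mark strand, so reads from that stretch cannot be told apart. *Hspg2*, the heparan sulphate proteoglycan of the layer, averaged 260, 332 and 166 CPM in artery-, capillary- and vein-like wells of replicate 1 and 182, 743 and 315 CPM in those of replicate 2, with capillary-like wells highest in both. In replicate 2 the artery-like *Hspg2* mean was 92.9 CPM without its highest well, and 84.5% of the capillary-like summed CPM came from 5 of 30 wells. At the limit of 10 CPM, vein-like wells were above capillary-like wells in both replicates, at 190 against 143 CPM and 456 against 383 CPM.

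The 10 genes were compared with each other per kilobase of exon. In kept BECs of replicate 1, *Col4a1* and *Col4a2* stood at 142 CPM per kb each, ahead of *Lamb2* at 33.1, and *Lama5* was last at 16.3 CPM per kb. In replicate 2, *Col4a2*, *Lamb2* and *Col4a1* lay together at 35.4, 34.2 and 31.3 CPM per kb, followed by *Lama5* at 28.7, and *Nid2* was last at 2.82 CPM per kb. *Lama5* thus ranked 10 in replicate 1 and 4 in replicate 2, *Nid2* ranked 4 and 10, and *Lamb2* ranked 3 and 2. *Lama4* and *Lamb1* moved up when the longest transcript was used as the length, since their exon unions of 12068 and 9917 bases exceed their longest transcripts of 6046 and 5784 bases.

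Detection of each gene, as the percentage of wells with a read, was compared after every well had been thinned to 20000 reads, which left out 4 capillary-like and 6 artery-like wells and none of the vein-like wells, all from replicate 2. *Col4a1* was read in 99.2% of thinned capillary-like wells of replicate 1 (95% Clopper-Pearson interval 95.7% to 100.0%), against 88.0% (68.8% to 97.5%) of artery-like and 86.9% (79.0% to 92.7%) of vein-like wells. In replicate 2 the shares were 65.4% (44.3% to 82.8%), 37.9% (20.7% to 57.7%) and 46.3% (35.3% to 57.7%). The capillary-like share was the highest in both replicates, and all 3 intervals of replicate 2 overlapped. In artery-like wells, *Lama4* was read in 36.0% (replicate 1, 17.97% to 57.5%) and 20.7% (replicate 2, 7.99% to 39.7%), and in 60.2% (51.1% to 68.7%) and 46.2% (26.6% to 66.6%) of capillary-like wells. *Nid2* was read in 6.90% to 29.9% of wells over the 3 classes and both replicates. Before thinning, the *Col4a1* shares were 100.0% in every class of replicate 1 and 48.6% to 73.3% in replicate 2. The intervals cover counting error only.

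**Figure D2:**
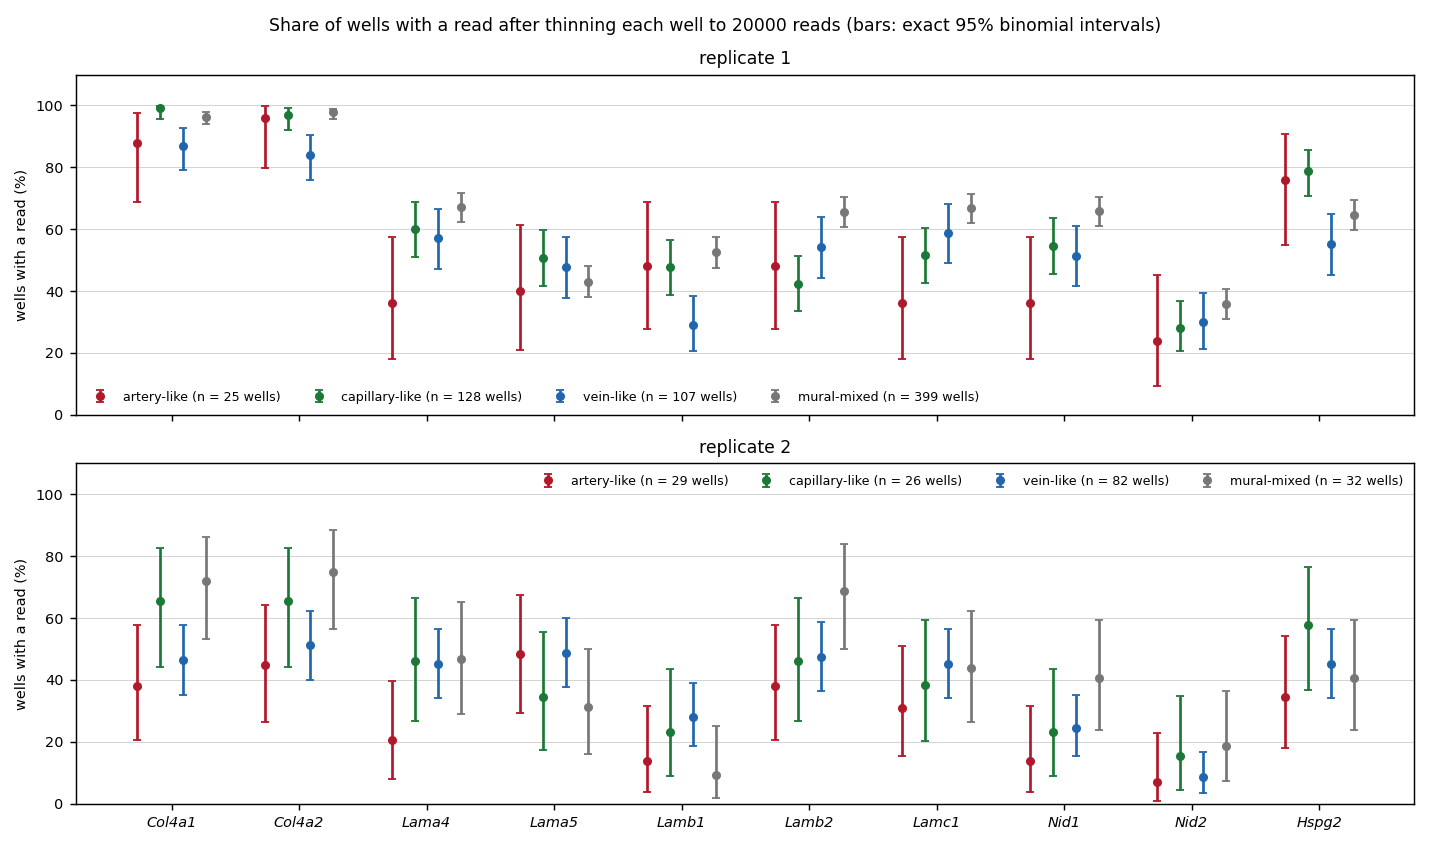
Share of wells with a read (y axis, %) of each basement membrane gene after thinning to 20000 reads, by class, with exact 95% intervals, in replicate 1 (top) and replicate 2 (bottom). Capillary-like wells had the highest *Col4a1* share of the BEC classes, 99.2% in replicate 1 and 65.4% in replicate 2, while *Nid2* stayed under 30% in all BEC classes.

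Artery-like wells were first compared with vein-like wells, using counts summed per class and replicate. No basement membrane gene passed the threshold (edgeR, adjusted p under 0.05), and neither did any other of the 14913 genes tested (0%), whereas 901 (6.04%) had an unadjusted p under 0.05 and DESeq2 called 522 (3.5%) and none of the 10. *Nid1* had the largest difference, with a log2 fold change of -2.09 ± 0.77 (SE, edgeR adjusted p = 0.783), and values of -1.17 in replicate 1 and -2.86 in replicate 2. It was the only one of the 10 with an unadjusted p under 0.05. *Lama4* stood at -0.82 ± 0.56 (-0.061 and -1.71 in replicates 1 and 2) and *Lama5* at 0.63 ± 0.48 (0.10 and 1.06), so that both were near 0 in replicate 1. For *Col4a1* (0.23 ± 0.43), *Col4a2*, *Lamb1*, *Lamb2*, *Lamc1* and *Hspg2* the replicates differed in sign. Summed CPM of the 12 capillary markers was 11942 in artery-like against 5171 in vein-like wells of replicate 1, and 2292 against 3193 in replicate 2. These markers thus changed direction between the replicates as *Col4a1* (0.97 and -0.43), *Col4a2* (0.81 and -0.32) and *Hspg2* (0.76 and -0.58) did, and their part in these values was not tested. In all, 4 of the 10 had the same sign in both replicates, against 54.5% of all genes, and 5 were positive, against 42.6% of all genes. Their median log2 fold change was -0.07 against -0.24 for all genes.

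Capillary-like wells were then compared with the mean of artery- and vein-like wells. Again none of the 10, and none of 14913 genes (0%), passed the threshold in edgeR, with 582 genes (3.9%) at an unadjusted p under 0.05 and 198 (1.33%) called by DESeq2. *Lama4* was 1.24 ± 0.46 on the log2 scale (SE, edgeR adjusted p = 0.953), with 0.95 in replicate 1 and 1.62 in replicate 2. *Hspg2* stood at 1.05 ± 0.43 and *Col4a2* at 0.88 ± 0.33, and these 3 were the members with an unadjusted p under 0.05. *Col4a1* stood at 0.62 ± 0.36. All of these were positive in both replicates and under each alternative fit, and none of those fits called any of them. Of the 10 genes, 8 had the same sign in both replicates, 7 of them positive and *Lamb2* negative, against 50.7% of all genes, and 7 fitted values were positive, against 49.6%. The median was 0.53 against -0.01 for all genes. The 95% intervals reached from 0.18 to 2.30 for *Lama4* and from -1.06 to 0.88 for *Lama5*, so differences of over 1.5-fold in either direction were not resolved for *Lama5*. Summed CPM of the 14 mural markers was 1738 and 618 in capillary-like wells, 1865 and 571 in artery-like wells and 1087 and 443 in vein-like wells, and that of the 7 fibroblast markers was 769 and 333, 92.3 and 197, and 214 and 31.7. Fibroblast markers thus moved with the capillary-like class, and their part in these differences was not tested.

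**Figure D3:**
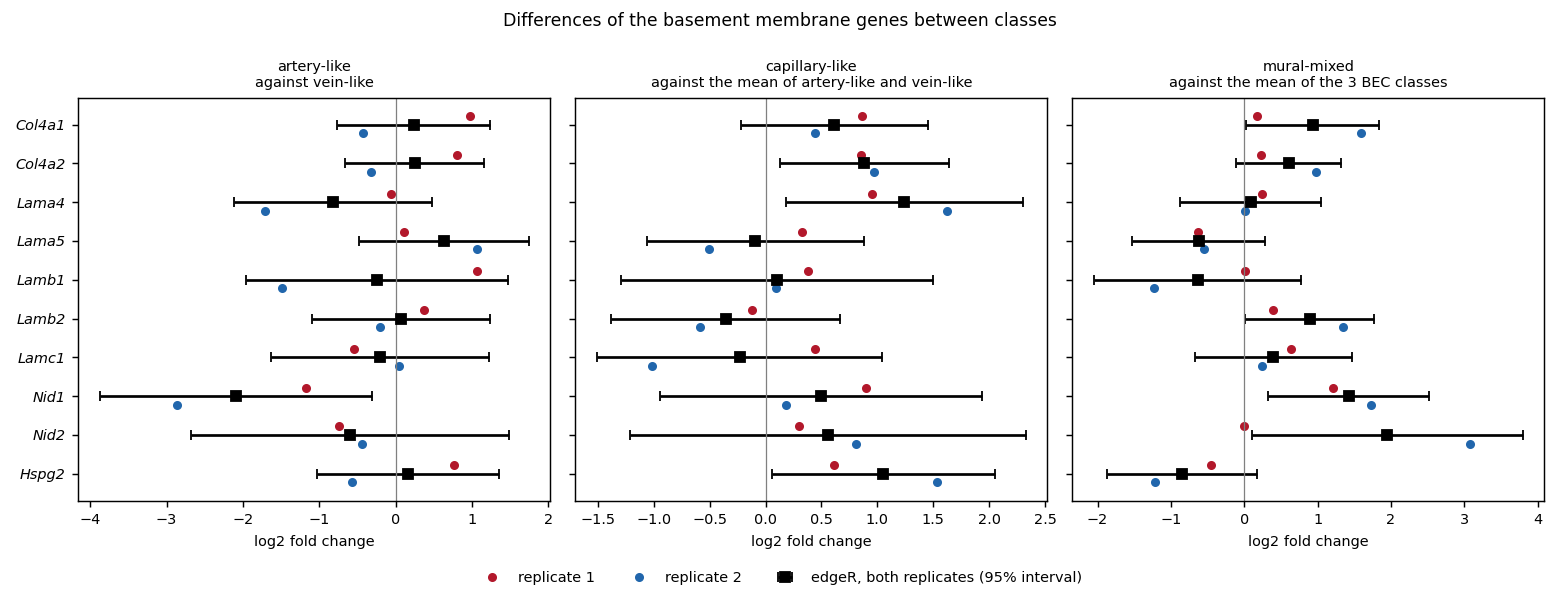
Log2 fold change (x axis) of each basement membrane gene in the 3 comparisons, with edgeR estimates and 95% intervals (squares) and the values of replicate 1 and replicate 2 (points). *Lama4*, *Hspg2* and *Col4a2* had intervals above 0 for capillary-like wells before adjustment, and no adjusted p passed 0.05 in any comparison.

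Mural-mixed wells were compared with the mean of the 3 BEC classes. Of 17059 genes, 37 passed the threshold in edgeR (0.217%), all of them higher in mural-mixed wells, and none was among the 10. *Nid1* was closest, at 1.42 ± 0.48 on the log2 scale (SE, edgeR adjusted p = 0.329), with 1.21 in replicate 1 and 1.72 in replicate 2. After normalization of the summed counts, its level was 300 and 153 CPM in mural-mixed wells, against 69.3 to 198 CPM in the classes of replicate 1 and 16.4 to 123 CPM in those of replicate 2. In summed counts *Nid1* was thus above all BEC classes of its replicate, while its mean CPM over wells in replicate 2 was 102 against 101 in vein-like wells. *Col4a1* stood at 0.93 ± 0.39 (edgeR adjusted p = 0.529), with 0.17 in replicate 1 and 1.58 in replicate 2. *Lamb2* stood at 0.89 ± 0.38 (0.39 and 1.34) and *Nid2* at 1.95 ± 0.81. The *Nid2* value was 3.08 in replicate 2 and -0.00037 in replicate 1. With *Nid1*, these were the 4 members at an unadjusted p under 0.05, against 9.02% of all genes. *Lama5* stood at -0.63 ± 0.40 and *Hspg2* at -0.85 ± 0.45, both negative in both replicates and both positive at a limit of 10 CPM (0.98 and 0.71). DESeq2 called 853 genes (5%) and none of the 10. Of the 10, 8 had the same sign in both replicates (56.6% of all genes) and 7 were positive (55.9%). The median of the 10 was 0.50, against 0.16 for all genes. Summed CPM of the 14 mural markers was 11681 and 10305 in mural-mixed wells, and all 14 reached 10 CPM in both replicates. That of the 7 fibroblast markers was 1778 and 2126. *Pdgfrb* and *Kcnj8* are among the 14. They chose these wells and were capped in the BEC classes, so their height here follows from the rule. *Rgs5*, outside the rule, was the highest of the 14, at 3855 and 3413 CPM. The same rule favours mural genes among the 37 calls. The part of mural and fibroblast RNA in the differences was not tested, and RNA of mural cells in a shared well cannot be told apart from endothelial RNA.

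**Figure D4:**
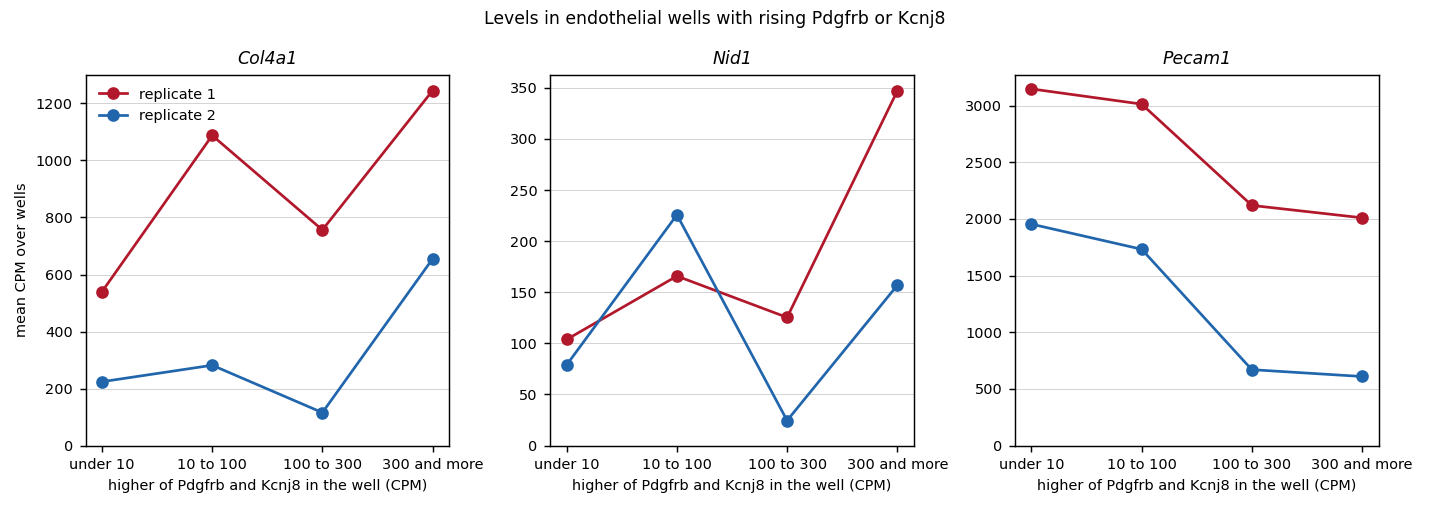
Mean CPM (y axis) of *Col4a1*, *Nid1* and the endothelial gene *Pecam1* in endothelial wells ordered by the higher of *Pdgfrb* and *Kcnj8* (x axis, CPM), by replicate and without error bars. *Col4a1* and *Nid1* were highest in the top step of replicate 1, at 1245 and 347 CPM, and *Pecam1* stood at 3148 CPM in the lowest and 2011 CPM in the top step. In replicate 2, *Nid1* averaged 79.0, 226, 24.5 and 157 CPM over the steps, and was highest from 10 to 100 CPM.

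Within endothelial wells, the levels followed no even course with mural content. In replicate 1, *Col4a1* averaged 540 CPM in the 18 wells under 10 CPM of *Pdgfrb* and *Kcnj8*, 1088 CPM in the 320 wells from 10 to 100 CPM, 756 CPM in the 47 wells from 100 to 300 CPM and 1245 CPM in the 360 wells above. In replicate 2 these steps held 224, 282, 116 and 655 CPM in 300, 63, 22 and 31 wells, the third with a median of only 9508 reads per well. Wells rich in *Pdgfrb* or *Kcnj8* with fewer than 100 CPM of *Pecam1* (mural wells, 8 and 38) held 1644 and 650 CPM of *Col4a1* and 2147 and 668 CPM of *Col4a2*, above all BEC classes of replicate 1 and, for *Col4a1*, of replicate 2. Without its highest of 8 wells, the *Col4a1* mean of replicate 1 was 1349 CPM, below the capillary-like mean. *Nid1* averaged 431 and 188 CPM there. *Lamc1* averaged 359 and 373 CPM, but in replicate 1 the 3 mural wells of plate A held 60.3 CPM, below the 153 CPM of the kept BECs of that plate, and the 5 of plate B held 539 CPM. *Lamb1*, at 50.1 and 60.0 CPM, was lower in mural wells than in all kept BECs (222 and 126 CPM) in both replicates. Without the highest well of each group these means were 6.21 and 29.3 CPM against 213 and 90.6 CPM. These differences between mural wells and BECs were not tested. Mural wells are not a separate or pure reference, because a well could be both mural and mural-mixed. In replicate 1 all 765 wells within the depth limits met the endothelial rule. The highest *Col4a1* value of replicate 2 was the same in both groups, 3402 CPM. Mural wells also held 4346 and 575 CPM of capillary markers and 3063 and 4911 CPM of fibroblast markers. Kept BECs held 441 and 721 CPM of fibroblast markers, and the part of that RNA was not tested.

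The laminin alpha chains were also examined in lymphatic-marked wells, which pass the endothelial rule and hold at least 100 CPM of *Lyve1* or *Prox1* (13 wells of replicate 1 and 145 of replicate 2). All 7 lymphatic markers reached 10 CPM there in both replicates and summed to 5560 and 8813 CPM, against 66.1 and 969 CPM in kept BECs. *Prox1* and *Lyve1* are among the 7. They chose these wells and were capped in kept BECs, so part of this gap was fixed in advance. *Mmrn1*, outside the rule, was the highest of the 7 in lymphatic-marked wells, at 1256 and 2364 CPM. Kept BECs of replicate 2 included 113 wells of the unnamed cluster of mixed markers. These held 2829 CPM of lymphatic markers and 109 CPM of *Lama5*, so this reference held lymphatic RNA too. In lymphatic-marked wells *Lama5* averaged 21.4 and 48.3 CPM, against 185 and 327 CPM in kept BECs, and its ratio to BECs was 0.12 and 0.15. Without the highest well its means were 12.1 and 32.0 CPM, so the ratios that follow depend on single wells too. *Lama4* averaged 235 and 541 CPM against 224 and 210 CPM. Per kilobase, mean CPM of *Lama4* was 10.4 and 10.6 times that of *Lama5* in lymphatic-marked wells, 1.14 and 0.61 times in all kept BECs, and 0.18 to 1.41 times in the 3 BEC classes. In summed counts, in which deep wells weigh more, the ratios were 12.9 and 15.3, 1.19 and 0.72, and 0.13 to 1.54. These ratios used the union of annotated exons, and each is higher with the longest transcript as the length. By that length *Lama4* of kept BECs stood at 37.0 and 34.7 CPM per kb, against 16.3 and 28.7 for *Lama5*. *Lama4* was then above *Lama5* in kept BECs of both replicates. All 4 plates were below the BEC means, with *Lama5* at 13.1 and 40.1 CPM in replicate 1 (plates A, B) and 36.7 and 55.3 CPM in replicate 2. At 20000 reads per well, *Lama5* was read in 7.69% of lymphatic-marked wells of replicate 1 (95% interval 0.19% to 36.0%) and 19.6% of those of replicate 2 (12.0% to 29.1%), against 45.4% (40.0% to 50.9%) and 43.9% (38.1% to 49.8%) of kept BECs. *Lama4* was read in 84.6% (54.5% to 98.1%) and 77.2% (67.3% to 85.3%), against 54.3% (48.8% to 59.7%) and 41.2% (35.5% to 47.0%). Before thinning, *Lama5* was read in 69.2% and 33.8% of lymphatic-marked wells, against 68.9% and 49.6% of BECs, so that in replicate 1 the gap in shares appeared only after thinning. The unthinned *Lama4* shares were 100.0% and 66.9%, against 83.4% and 52.9%. These intervals cover counting error only, over wells of shared pools. With both *Lyve1* and *Prox1* at 100 CPM or more, an alternative chosen after the data had been seen, 2 and 38 wells remained and *Lama5* averaged 5.16 and 17.6 CPM. This comparison had no test, and wells of replicate 2 were shallower here, with a median of 36000 reads against 92974 in BECs.

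**Figure D5:**
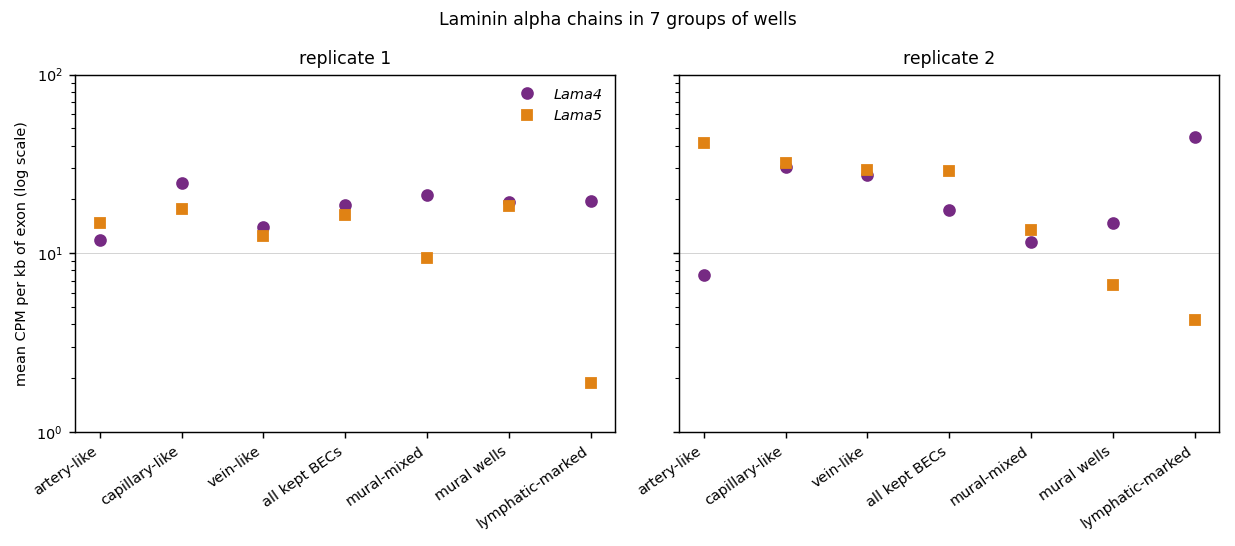
Mean CPM per kb of exon (y axis, log scale) of *Lama4* (circles) and *Lama5* (squares) in 7 groups of wells (x axis), for replicate 1 (left) and replicate 2 (right). In lymphatic-marked wells *Lama5* stood at 1.88 and 4.24 CPM per kb, while *Lama4* stood at 19.5 and 44.9 CPM per kb.

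*Hspg2* was likewise lower, at 53.0 and 129 CPM in lymphatic-marked wells against 259 and 375 CPM in kept BECs, and 25.7 CPM in replicate 1 without the highest of 13 wells. After thinning, its shares were 15.4% (1.92% to 45.5%) against 66.8% (61.5% to 71.8%) in replicate 1 and 39.1% (29.1% to 49.9%) against 43.9% (38.1% to 49.8%) in replicate 2. Before thinning they were 69.2% against 90.5% and 47.6% against 54.3%. *Nid1* averaged 227 and 988 CPM against 163 and 105 CPM. In replicate 2, 83.7% of its summed CPM came from the 5 highest of 145 wells and 71.3% from the single highest, without which the mean was 286 CPM, and in replicate 1 the mean was 139 CPM without the highest well. *Nid2* stood at 96.6 against 131 CPM in replicate 1 and at 129 against 14.6 CPM in replicate 2, where it was 80.5 CPM without its highest well. *Lamc1* stood at 403 and 174 CPM against 166 and 149 CPM, and its mean of replicate 1 was 262 CPM without the highest well. Sequence upstream of *Lama5* and *Hspg2* is shown because both genes were lower in lymphatic-marked wells of each replicate. *Col4a2* was lower there too, at 377 and 164 CPM, and its window is not printed because it lies in an untranslated region. RefSeq (GRCm38.p6) gave windows for 7 of the 10 genes, without *Lama4*, *Lamc1* and *Nid2*. The 200 bases printed lie from 250 to 51 bases before the start site, in no annotated exon or untranslated region, with the motif GGGCGG or its reverse complement CCGCCC in capitals.
Lama5, chr2:180225910-180226109, minus strand: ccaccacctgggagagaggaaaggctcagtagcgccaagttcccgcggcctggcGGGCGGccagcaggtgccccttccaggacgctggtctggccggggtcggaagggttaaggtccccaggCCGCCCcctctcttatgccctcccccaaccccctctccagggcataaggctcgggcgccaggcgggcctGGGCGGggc
Hspg2, chr4:137468553-137468752, plus strand: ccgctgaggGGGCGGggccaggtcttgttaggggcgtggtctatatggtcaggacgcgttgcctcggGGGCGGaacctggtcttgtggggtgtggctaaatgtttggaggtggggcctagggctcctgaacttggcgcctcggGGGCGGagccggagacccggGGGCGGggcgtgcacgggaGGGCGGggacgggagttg
The motif occurred 3 times in the *Lama5* window and 5 times in the *Hspg2* window, and 24.6% of all 32851 promoter windows of this length held it at least once. It also occurred in the windows of *Col4a2*, *Lamb1* and *Nid1*, and not in those of *Col4a1* and *Lamb2*. Neither printed window held CCAAT or TATAAA, searched on both strands, which 28.4% and 9.14% of windows held. A match of letters is a description and says nothing of a factor bound there.

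Other genes of the basement membrane were taken from 3 lists. Of the 22 other structural genes, 18 could be tested between BEC classes and 19 against mural-mixed wells, and *Lama2*, the laminin alpha chain of muscle and pericytes, was the only edgeR call, higher in mural-mixed wells. Its normalized level was 79.5 and 259 CPM there, against 0.20 to 8.07 CPM in the 6 sums of BEC classes, a log2 fold change of 7.48 ± 1.06 (SE, edgeR adjusted p = 0.0493), and the groups did not overlap. The call held in 6 of 10 alternative fits, whose adjusted p ranged up to 0.140. Of the 16 tested genes of collagen and laminin assembly and the 11 matrix receptors, none passed in any of the 3 comparisons. In the mural-mixed comparison, alternative fits called the laminin-binding integrin chain *Itga7* in 4 of 10 fits (4.91 ± 1.12, edgeR adjusted p = 0.153, normalized levels of 276 and 233 CPM against 0 to 23.1 CPM), *Smoc2* in 4 of 9 and *P3h2* in 2 of 10. The normalized level of *Smoc2* in replicate 1 was 9.88 CPM in mural-mixed and 9.24 CPM in capillary-like wells. In replicate 2 it was 309 CPM in mural-mixed wells against 0.30 to 3.08 CPM in the BEC classes, so its difference rested mostly on replicate 2. At an unadjusted p under 0.05 in the artery-like, capillary-like and mural-mixed comparisons, structural genes numbered 3, 2 and 5, assembly genes 3, 1 and 5 and receptors 0, 1 and 2, where all genes gave 6.04%, 3.9% and 9.02%. DESeq2 called 1, 1 and 3 structural genes, 3, 0 and 3 assembly genes and 0, 0 and 2 receptors, where all genes gave 3.5%, 1.33% and 5%. The structural genes with the highest CPM in kept BECs by the mean of both replicates, a choice for description that is not corrected for length, were *Sparc*, a collagen-binding matricellular protein (5578 and 2104 CPM), *Egfl7*, a protein secreted by endothelium (2230 and 1224 CPM), *Tinagl1* (862 and 508 CPM), *Fbln2* (565 and 180 CPM) and *Ecm1* (148 and 102 CPM), although in replicate 2 *Col15a1* and *Agrn* were above *Ecm1*, at 113 and 106 CPM. The log2 difference of *Sparc* in capillary-like wells was 0.55 ± 0.20 (edgeR adjusted p = 0.953). *Egfl7* stood at 230 and 35.8 CPM in mural wells and did not pass the threshold in mural-mixed wells, at -1.45 ± 0.35 (edgeR adjusted p = 0.163), although 1 of 10 alternative fits called it. Among assembly genes, *P4hb*, a subunit of collagen prolyl 4-hydroxylase, held 648 and 546 CPM, and the others chosen so were *Ppib*, *Pxdn*, *Plod1* and *Crtap*. Among receptors, the laminin receptor *Bcam* held 679 and 644 CPM, and the others were *Itgb1*, *Itga6*, *Itgb4* and *Dag1*. *Itga6*, an integrin alpha chain that binds laminin, averaged 487 and 299 CPM in capillary-like wells, 197 and 237 CPM in artery-like wells and 184 and 225 CPM in vein-like wells, and did not pass the threshold (1.03 ± 0.35, edgeR adjusted p = 0.953).

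The median well of replicate 1 held reads of 8 of the 10 genes in kept BECs and of 9 in mural-mixed wells, and the median well of replicate 2 held 4 in both. At 20000 reads these medians were 6 and 7 in replicate 1 and 3 and 4 in replicate 2. Among 3878 genes outside these lists that were read in at least 20% of wells of each replicate, *Cd93* ranked first by the mean of both replicates' Spearman correlations with the summed CPM of the 10 genes across kept BECs, at 0.36 in both. *Cdh5* (0.41 and 0.29), *Cxcl12* (0.33 and 0.33), *Nrp1* (0.37 and 0.23) and *Afdn* (0.36 and 0.22) came next by that mean. In replicate 1 alone *Rgcc* (0.44 and 0.12), *Cdh5*, *Nrp1* and *Afdn* were above *Cd93*. These correlations are over 338 and 363 wells that share their libraries' depth, and are given without a test.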

How the data were processed

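Per the labels and the submitters' processing notes, Smart-seq2 libraries were sequenced as single 50-bp reads and aligned to mm10 with TopHat2 2.1.1, duplicates were removed with SAMtools 0.1.18, and genes were counted with the Subread package, version 1.4.6-p5. What the authors deposited is the raw count of reads for each gene in each well. The annotation release is not given in the sources used here. The 92 spike-in sequences (0.971% of counts) were left out. Of 46517 identifiers, 46005 matched a symbol in GENCODE vM21. Plates held 31864976 to 74739095 reads, with 1143 to 827686 reads per well.

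Wells needed at least 600 counts and 500 to 8000 genes with a read. Doublets were not called. Size factors came from scran 1.30.0. The 1000 most variable genes, without the basement membrane genes, were reduced to 15 components and clustered with leidenalg 0.10.2 (15 neighbours, resolution 0.6). A cluster was named from at least 3 markers 1.25 times higher. The cluster of 162 wells, mural by this rule, was left unnamed by hand. Counts were summed per class and replicate. A gene entered the test if 2 or more sums reached 10 counts. The quasi-likelihood test of edgeR 4.0.16 was used after TMM normalization, with the replicate as a block, Benjamini-Hochberg adjustment over all genes and a threshold of 0.05. Standard errors were derived from the F statistic. The code was tested on simulated data. The classes share the pool of their replicate, and deviations of same-replicate sums from class means correlated at 0.121, 0.106 and 0.108. Between the BEC classes the common dispersion was 0.834 with 2 residual degrees of freedom.

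All 10 genes are named. Other basement membrane genes are named when called in the same direction in both replicates, otherwise the 5 most abundant per list. Outside this rule, *Itga7*, *Smoc2* and *P3h2* are named because alternative fits called them, and *Col15a1* and *Agrn* for their level in replicate 2. The gene closest in pattern and the next 4 are named as well. The genes and lists were chosen with earlier results of these data known, and so was the limit of 100 CPM, because 10 CPM leaves 18 wells of replicate 1. *Itga6* and the lymphatic-marked wells were singled out after their values had been seen. Alternatives tried were DESeq2 1.42.0 (test and size factors), no count filter, no replicate block, each plate alone, a limit of 10 CPM, thinning of wells to 20000 reads, the next higher resolution, all kept BECs as reference and leaving out each replicate. Leaving out the well with the highest CPM and taking ratios of well means were added after seeing the data.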

Additional observations from a re-analysis of the deposited data

Results flagged for a closer look

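Over the 4 plates, 3 of 50 sets of means (10 genes in 5 groups of wells) held a plate far from the others by Dixon's test, where chance gives about 1 in 20. *Col4a2* in capillary-like wells was 303 CPM on plate B of replicate 2, against 1299 to 1320 CPM on the other plates. The 1320 CPM of plate A of replicate 2 rested on 1 of 11 wells, without which that plate held 235 CPM, so the gap then lay between the replicates and not at plate B. *Lama4* in vein-like wells was 481 CPM on plate B of replicate 2, against 169 to 209 CPM. *Nid1* in vein-like wells was 46.7 CPM on plate A of replicate 2, against 158 to 171 CPM.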

How the results depend on the processing

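None of the 10 genes passed the threshold in any of the 10 alternative fits of each comparison. The number of genes called moved, and the cause was not tested. Between artery- and vein-like wells (0 called) it was 522 with DESeq2, 44 without the count filter, 12 on plate A, 1 on plate B, 3 at a limit of 10 CPM, 1 at the next resolution and 13 after thinning. For capillary-like wells (0 called) it was 198, 23, 10 and 2 on the plates, 10 at 10 CPM and 1 after thinning. For mural-mixed wells (37 called) it was 853 with DESeq2, 68 with its size factors, 274 without the filter, 16 on plate B, 177 at 10 CPM, 100 at the next resolution, 206 after thinning and 0 against all kept BECs. Without the replicate block it was 76, and *Lamb1* between artery- and vein-like wells turned to 0.13. At 10 CPM, 247 wells were kept, with 34 artery-like, 29 capillary-like and 98 vein-like wells. At the next resolution, artery-like wells numbered 141 and vein-like wells 106.

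Signs turned as follows, on the log2 scale. Between artery- and vein-like wells, 10 CPM gave *Col4a1* -0.40, *Col4a2* -1.37, *Lama5* -2.61, *Lamb2* -2.55 and *Hspg2* -1.98. The artery-like cluster at 10 CPM had 6 of the 7 fibroblast markers raised beside 11 of the 12 artery markers, and their part was not tested. The next resolution gave *Lama4* 0.56, *Lamb1* 1.36 and *Nid2* 0.84. Without the filter *Lamb2* was -0.11 and *Hspg2* -0.020, and after thinning *Col4a1* was -0.075 and *Lamb2* -0.22. Plate A gave *Lama5* -0.66, *Lamb1* 2.25 and *Lamc1* 0.84, and plate B *Col4a2* -0.10 and *Lamb2* -0.62. Leaving out a replicate gave ranges of -0.43 to 0.97 for *Col4a1*, -0.32 to 0.81 for *Col4a2*, -1.48 to 1.07 for *Lamb1*, -0.21 to 0.37 for *Lamb2*, -0.55 to 0.038 for *Lamc1* and -0.58 to 0.76 for *Hspg2*. For capillary-like wells, the next resolution gave *Lama5* 0.35, *Lamb2* 0.18, *Lamc1* 0.21 and *Nid1* -0.80, thinning gave *Lama5* 0.22 and *Lamc1* 0.079, plate A *Lama5* 0.80 and *Lamb1* -0.69, and plate B *Nid1* -0.055 and *Nid2* -0.92. Leaving out a replicate gave -0.51 to 0.33 for *Lama5* and -1.02 to 0.44 for *Lamc1*. For mural-mixed wells, 10 CPM gave *Lama5* 0.98, *Lamb1* 0.060 and *Hspg2* 0.71, and plate B *Lama4* -0.47 and *Lamc1* -0.044. Leaving out a replicate gave -1.23 to 0.015 for *Lamb1* and -0.00037 to 3.08 for *Nid2*. With a replicate left out, 1 sum per class remains, so these are values with no test. Without the highest well, 17 means of a class in 1 replicate moved by over 1.5 times and 65 did not. Depth limits replicate 2, where 69 kept BECs, none of them vein-like, had too few reads to be thinned.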
